A study of Acacia koa with 4 samples.

Results

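Flavonoid pathway transcripts were examined in young plants of koa (Acacia koa), a legume tree native to Hawaii, after a mechanical stimulus. The members were the transcripts whose deposited description named a chalcone, flavanone, flavonoid, flavonol, dihydroflavonol, anthocyanin, leucoanthocyanin or isoflavonoid, and the search found 34 of 4000 transcripts on the array. The stressed group was seedlings whose stems were bent by hand, without wounds, along the cardinal directions, and the unstressed group was seedlings left unbent. Each group held 2 biological replicates, and each replicate was a pool of about 20 seedlings on 1 array, so every value is an average over many plants and over the organs of a seedling. No genotype, age or time between bending and freezing is given in the sources used here. In such pools, fewer cells of a type and less RNA per cell cannot be told apart.

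Flavonoids are phenolic compounds of plants that serve as pigments, light screens, defence compounds and, in legumes, signals to root bacteria. Chalcone synthase joins a phenylpropanoid starter with malonyl units, chalcone isomerase closes the ring to a flavanone, and hydroxylases add oxygen to the rings. Dihydroflavonol reductase leads on to anthocyanins and to the condensed tannins that many woody legumes store in bark, leaves and heartwood, while legumes also run an isoflavonoid branch. Transferases attach sugars, acyl groups or methyl groups at the end.

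The 34 members fell into 9 chalcone synthases, 1 chalcone reductase, 1 chalcone isomerase, 1 flavanone 3-hydroxylase, 6 hydroxylases of the flavonoid B-ring, 3 dihydroflavonol reductases, 1 anthocyanin glucosyltransferase, 7 transcripts of the isoflavonoid branch and 4 other flavonoid transferases. In the remaining 1, A139364, the description stopped after the word flavonoid. It also carried the entry name UGFGT_MEDTR, which was not used to assign a step. No description analysed here named a flavonol synthase, an anthocyanidin synthase, an isoflavone synthase or either of the reductases specific to condensed tannins, leucoanthocyanidin reductase and anthocyanidin reductase. By their descriptions, the members therefore cover the general flavonoid route up to dihydroflavonol reductase and parts of its decoration. They cover no step that belongs to tannins alone. The only isomerase is described as putative, so its enzyme activity is not established here. They carried 22 distinct descriptions, and RNAs of transcripts that share one may cross-hybridise, so a family's values are not independent of each other.

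Values are log2 of the authors' RMA intensity, and a difference is the stressed mean minus the unstressed mean, so 1 unit is a factor of 2. Median log2 intensities over all 4000 transcripts lay between 9.95 and 9.99 in stressed pools and between 9.94 and 9.98 in unstressed pools. Correlations across all transcripts, which are not independent replicates, were 0.992 between the stressed pools and 0.983 between the unstressed pools. They were 0.974 to 0.985 between pools of different groups, so the unstressed pools were no more alike than some pools of different groups. Markers of green tissue were bright in every pool: a chlorophyll a/b-binding protein lay between 15.91 and 15.95. The highest values of the arrays were 15.98 to 15.99, so this marker had little room to rise. The summed intensity of both leaf markers was 91136 and 92339 in stressed pools, against 92460 and 92721 in unstressed pools. Because this sum includes that near-maximal marker, it cannot show an equal share of green tissue. The 8 transcripts found with root and nodule terms, of which 1 is a chalcone synthase, summed to 25526 and 26662 in stressed pools, against 21825 and 27097 in unstressed pools. The 44 found with xylem and secondary wall terms summed to 223859 and 231262 in stressed pools, against 251056 and 230599 in unstressed pools. Ribosomal protein terms, taken as a sign of RNA state, found 42 transcripts with a median difference of 0.11, and 34 were positive. They summed to 234226 and 244138 in stressed pools, against 193955 and 243739 in unstressed pools, so unstressed replicate 1 was the low pool. Single markers moved more than these sums show. The putative nodulin A268015 was at -1.05, although 6 of the 8 root and nodule transcripts were positive. The cellulose synthase A103931 was at -0.74, and of the 44 xylem and secondary wall transcripts 27 were negative and 17 positive. No marker transcript passed the test, and the part of organ make-up in the differences below was not tested.

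No flavonoid pathway transcript passed the test in either direction, where 0.95% of all transcripts did, 0.925% higher and 0.025% lower in stressed pools (limma, adjusted p under 0.05). The largest differences were those of a pair of flavonoid 3'-hydroxylases, A53995 at 0.91 and A66450 at 0.87, both higher in stressed pools. At an unadjusted p under 0.05 there were 2 members higher, against 3.82% of all transcripts, and 1 member lower, against 1.68%. The smallest adjusted p among the members was 0.52. Differences were positive for 19 members and negative for 15, with a median of 0.05 and a range from -0.41 to 0.91. Over all 4000 transcripts 39.2% were positive, and the median was -0.04. Values of the stressed and unstressed pools did not overlap for 12 members. Of these, 5 were higher in stressed pools, a separation found for 12.0% of all transcripts, and 7 were lower, found for 19.5%. The members' share without overlap, 12 of 34, was near the 31.5% of all transcripts. Unadjusted 95% confidence intervals lay within a 2-fold change in both directions for 26 of the 34 members and within 1.5-fold for 15. Of all 4000 transcripts, 3683 lay within 2-fold and 2473 within 1.5-fold, larger shares than among the members.

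**Figure D1:**
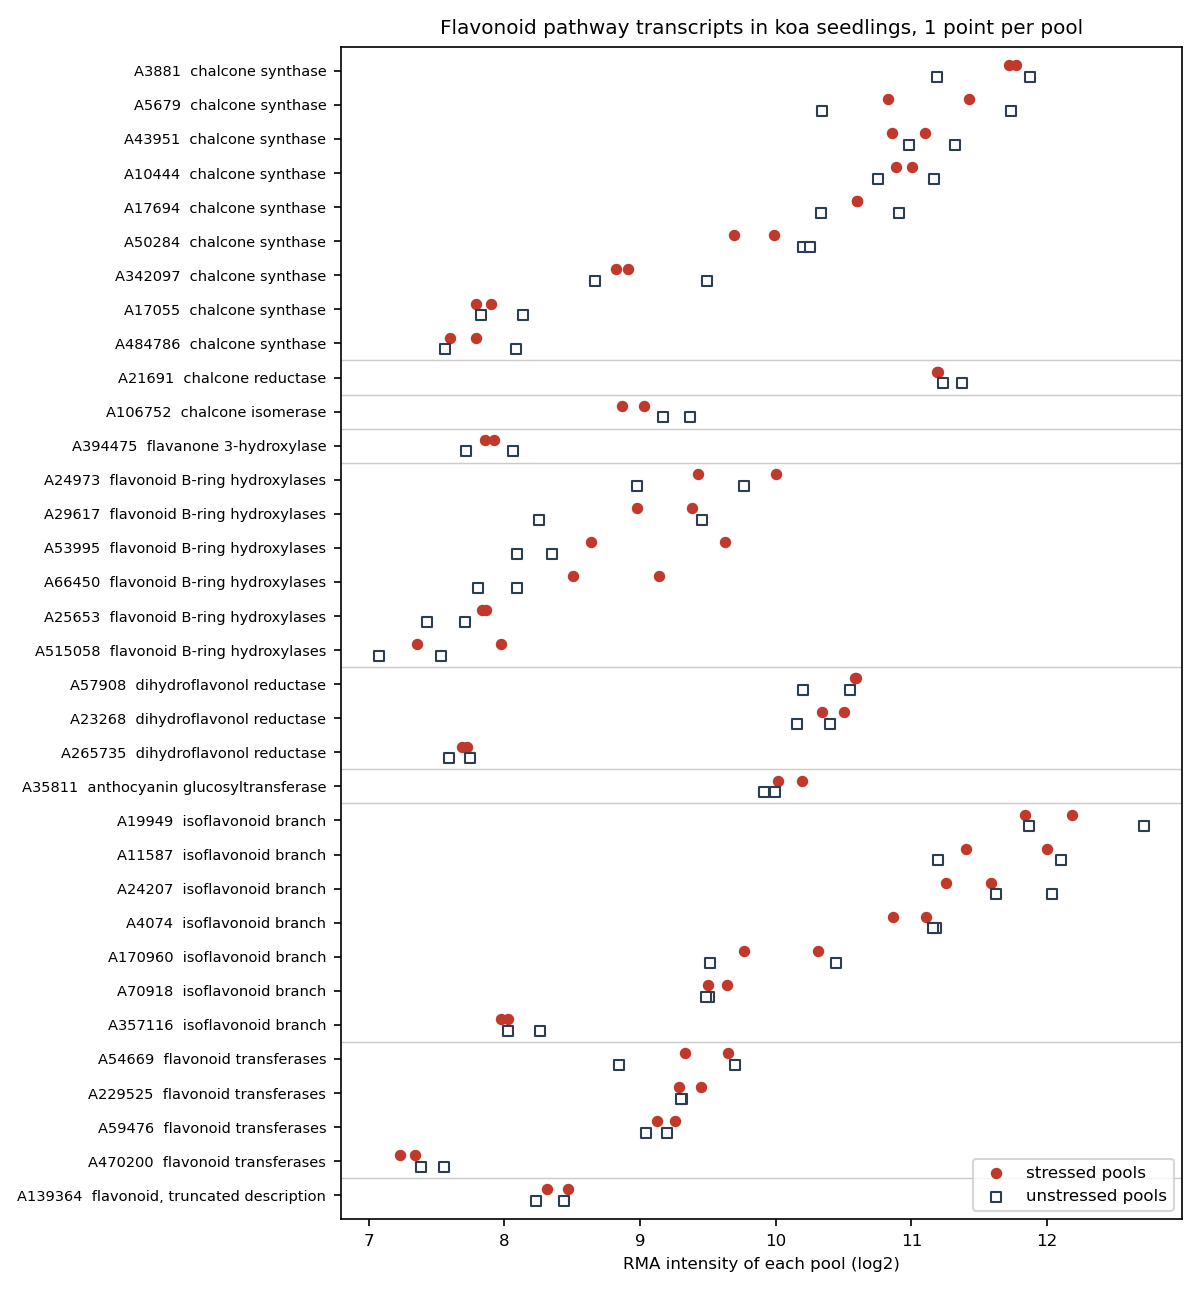
Log2 RMA intensity (x axis) of the 34 flavonoid pathway transcripts in pathway order from top to bottom, with 1 filled circle for each stressed pool and 1 open square for each unstressed pool. The groups overlap for 22 transcripts, and among the hydroxylases A53995 and A66450 both circles lie to the right of both squares.

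Chalcone synthase, the enzyme that opens the pathway, had 9 transcripts, of which 7 had negative and 2 positive differences. Their median difference was -0.13, with a range from -0.39 to 0.21. Leaving out single pools moved this median between -0.30 (unstressed replicate 1 left out) and -0.0040 (unstressed replicate 2 left out), and with stressed replicate 2 left out it was -0.06. With dim transcripts left out it was -0.02. A50284, described as a chalcone and stilbene synthase, had 9.99 and 9.70 in stressed pools, against 10.20 and 10.26 in unstressed pools. Both stressed values lay below both unstressed values. The difference was -0.39, or 1.31-fold lower (95% confidence interval 1.00 to 1.71), with an unadjusted limma p of 0.048 and an adjusted p of 0.89. Without stressed replicate 2 the difference was -0.24. Stilbene synthases are close relatives that use the same substrates, and the description does not say which of the 2 products the enzyme makes. The other two transcripts with this description, A43951 and A10444, had differences of -0.17 and -0.02, and their groups overlapped.

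The brightest chalcone synthase was A3881, whose description calls its relative root-specific. It had 11.77 and 11.72 in stressed pools, against 11.19 and 11.88 in unstressed pools. The stressed values fell inside the range of the unstressed ones, and the difference of 0.21 (95% confidence interval -0.43 to 0.85) had an adjusted p of 0.99. A5679, chosen after its values were seen, had the widest gap between pools of any member. It read 10.83 and 11.43 in stressed pools, against 10.34 and 11.74 in unstressed pools. The unstressed pools thus differed by 1.39, far more than the groups did, at 0.09. A17694 showed the same form on a smaller scale, with 10.60 in both stressed pools, against 10.33 and 10.91 in unstressed pools. The remaining 3 chalcone synthases, A342097, A17055 and A484786, had differences of -0.21, -0.14 and -0.13 with overlapping groups.

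Chalcone reductase works beside the synthase in legumes and leads to chalcones that lack 1 hydroxyl group. Its only transcript, A21691, had 11.19 and 11.20 in stressed pools, against 11.23 and 11.37 in unstressed pools. The groups did not overlap, yet the difference of -0.11 was smaller than the gap of 0.14 between the unstressed pools (95% confidence interval -0.42 to 0.21). The transcript described as a putative chalcone isomerase 3, A106752, had 8.87 and 9.03 in stressed pools, against 9.17 and 9.37 in unstressed pools. Its difference of -0.32 (95% confidence interval -0.68 to 0.04, adjusted p = 0.99) was larger than either gap between pools. Together the synthases, the reductase and the isomerase made up 11 transcripts, 9 with negative differences and 3 without overlap, all lower in stressed pools. Among the 9 negative ones, 3 are described as chalcone and stilbene synthases, so their product is not known. Negative differences were found for 60.8% of all transcripts, and lower values without overlap for 19.5%.

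Flavanone 3-hydroxylase turns flavanones into dihydroflavonols, the branch point to flavonols, anthocyanins and tannins. Its only transcript, A394475, was dim, within the lowest 25% of all transcripts by mean intensity. It had 7.92 and 7.86 in stressed pools, against 8.07 and 7.71 in unstressed pools. The stressed values lay between the unstressed ones. The difference was -0.0006, with a 95% confidence interval from -0.42 to 0.42.

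Hydroxylases of the B-ring are cytochromes P450 that decide how many hydroxyl groups the final pigment or tannin carries. All 6 of their transcripts had positive differences, from 0.28 to 0.91 with a median of 0.35, and 3 had groups without overlap. Of all transcripts 39.2% had a positive difference and 12.0% were higher in stressed pools without overlap. Without unstressed replicate 1, A24973 was at -0.05 and A29617 at -0.27, while the other hydroxylases stayed positive. A66450 read 9.14 and 8.51 in stressed pools, against 7.80 and 8.09 in unstressed pools. Both stressed pools were above both unstressed pools. The difference of 0.87 was 1.83-fold (95% confidence interval 1.17 to 2.86), with an unadjusted limma p of 0.018 and an adjusted p of 0.52. Without stressed replicate 1 it was 0.56, and without stressed replicate 2 it was 1.19.

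A53995, described as a putative flavonoid 3'-hydroxylase, had 9.63 and 8.64 in stressed pools, against 8.09 and 8.35 in unstressed pools. Here too the groups were apart, and stressed replicate 1 was the high pool for both transcripts. The difference of 0.91 was 1.88-fold (95% confidence interval 1.01 to 3.49), with an unadjusted limma p of 0.047 and an adjusted p of 0.88. It was smaller than the gap of 0.99 between the stressed pools, and was 0.42 without stressed replicate 1 and 1.41 without stressed replicate 2. A53995 and A66450 were the only members with an absolute difference of at least 0.5, found for 4.45% of all transcripts.

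The other B-ring transcripts had smaller differences. The brightest, A24973, had 9.43 and 10.00 in stressed pools, against 8.98 and 9.77 in unstressed pools. Its difference of 0.34 was under the gap of 0.79 between the unstressed pools, and its groups overlapped. A29617, a flavonoid 3'5'-hydroxylase of the class that leads to blue pigments and trihydroxylated tannins, had a difference of 0.33 beside a gap of 1.20 between the unstressed pools. The dimmest, A515058, had a difference of 0.36 with overlapping groups. A25653 is described as a flavonoid 3-hydroxylase without the prime mark, so its ring position is uncertain, and had a difference of 0.28 without overlap. Half-widths of the 95% confidence intervals in this family had a median of 0.77, against 0.44 over all members.

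**Figure D2:**
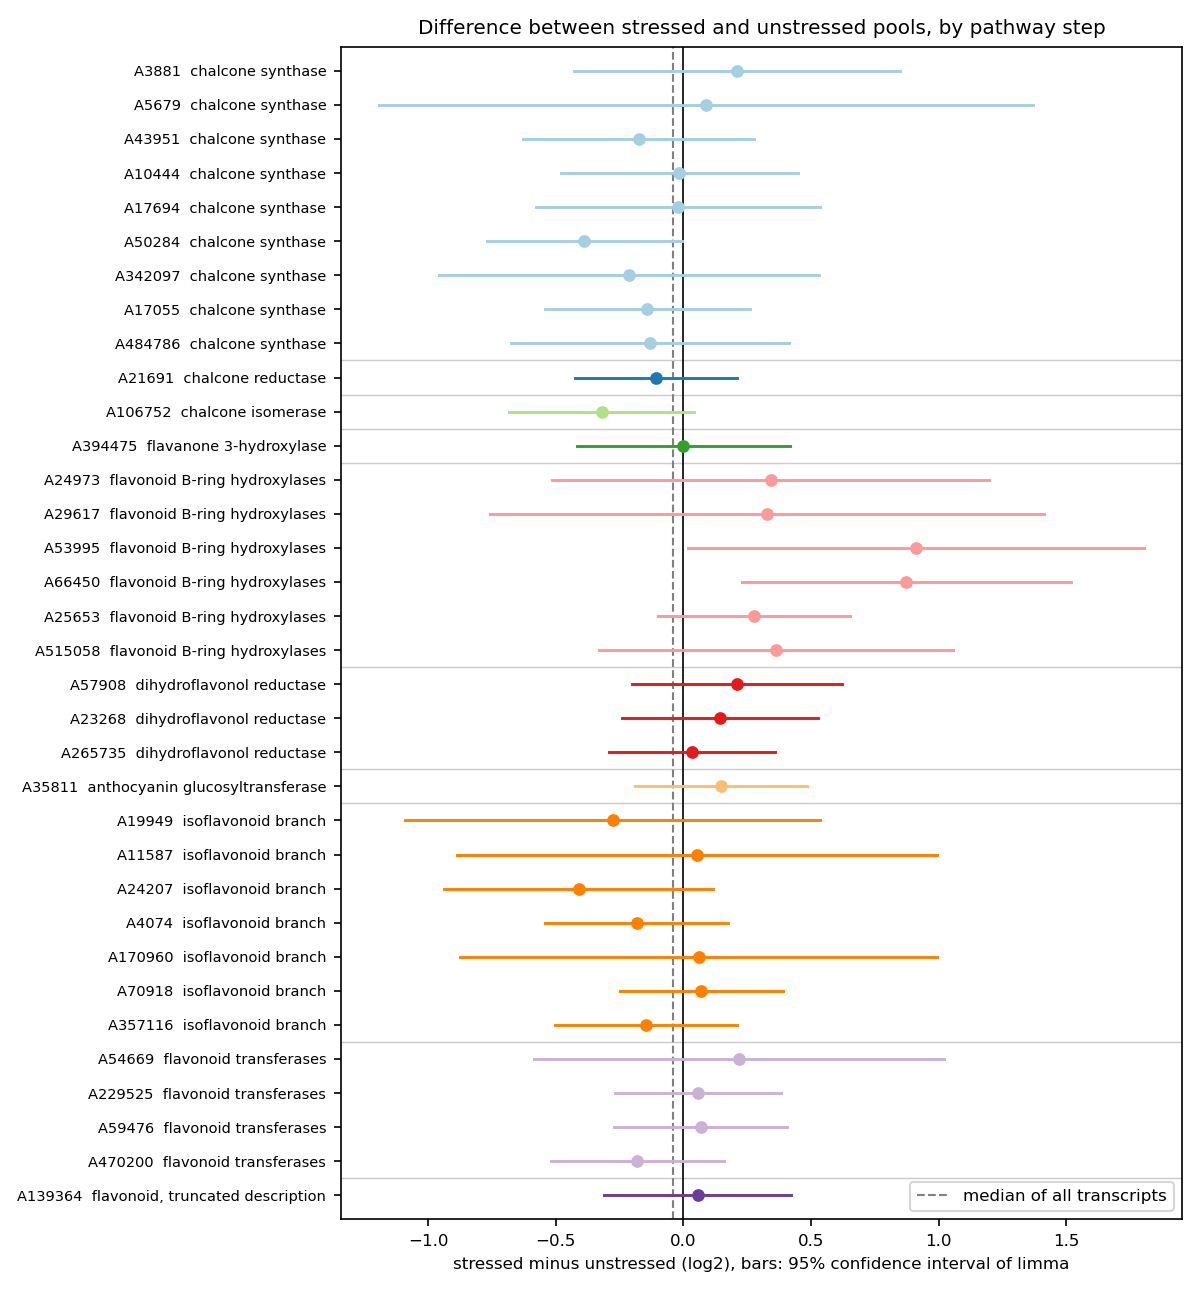
Stressed minus unstressed log2 difference (x axis) of each flavonoid pathway transcript, with bars for limma's unadjusted 95% confidence interval, colours for the pathway step and a dashed line at the median of all 4000 transcripts. All 6 B-ring hydroxylases lie right of 0 and 9 of the 11 chalcone enzymes lie left of it. Of those 9, 3 are described as chalcone and stilbene synthases. The bars exclude 0 for A66450, A53995 and A50284.

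Dihydroflavonol reductase reduces dihydroflavonols to the precursors of anthocyanins and condensed tannins. Its 3 transcripts shared 1 description and had positive differences of 0.21, 0.15 and 0.04. The brightest, A57908, read 10.58 and 10.59 in stressed pools, against 10.55 and 10.20 in unstressed pools. The stressed values were just above the higher unstressed value, and the difference had a 95% confidence interval from -0.20 to 0.62 (adjusted p = 0.99). Its relatives A23268 and A265735 had overlapping groups. An anthocyanin 5-O-glucosyltransferase, A35811, which adds a sugar to the finished pigment, had 10.19 and 10.01 in stressed pools, against 9.91 and 10.00 in unstressed pools. The lower stressed value barely cleared the higher unstressed one, and the difference was 0.15 (95% confidence interval -0.19 to 0.48).

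In the isoflavonoid branch, 4 of 7 transcripts were glycosyltransferases, which attach sugars to isoflavonoids before storage. The brightest member of all by mean intensity, A19949, had 11.84 and 12.19 in stressed pools, against 11.86 and 12.71 in unstressed pools. Its groups overlapped at a difference of -0.28 (95% confidence interval -1.09 to 0.54). A24207, an (iso)flavonoid glycosyltransferase, had 11.25 and 11.59 in stressed pools, against 11.62 and 12.04 in unstressed pools. Both stressed values were lower, by a mean of -0.41, the most negative difference among the members (1.33-fold lower, 95% confidence interval 0.92 to 1.91, adjusted p = 0.99). It was just under the gap of 0.41 between the unstressed pools. It ran from -0.62 without unstressed replicate 1 to -0.20 without unstressed replicate 2, and A50284 was more negative without stressed replicate 1, at -0.53 against -0.24.

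The other two glycosyltransferases, A11587 and A170960, had differences of 0.05 and 0.06 beside gaps of 0.91 and 0.92 between the unstressed pools. All 4 glycosyltransferases differed more between the unstressed pools than between the stressed pools. Malonyl transferases, which add a malonyl group to the sugar, were at -0.15 (A357116) and 0.07 (A70918). A4074 is described as an isoflavonoid regulator and had a difference of -0.18. Stressed values lay below unstressed values without overlap for A24207, A4074 and A357116, 3 of the 7, as they did for 19.5% of all transcripts. The median of the 7 was -0.15 and ran from -0.40 without unstressed replicate 1 to 0.06 without unstressed replicate 2.

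The 4 transferases outside the isoflavonoid branch had differences from -0.18 to 0.22. The flavonoid 3-O-galactosyl transferase A54669 had 9.33 and 9.65 in stressed pools, against 8.85 and 9.70 in unstressed pools. Its difference of 0.22 had a 95% confidence interval from -0.59 to 1.02, and its groups overlapped. Its relative A59476 was at 0.07 and the flavonoid glucosyltransferase A229525 at 0.06. The dim flavonoid O-methyltransferase A470200 was at -0.18 without overlap. A139364, the truncated flavonoid description, had 8.32 and 8.47 in stressed pools, against 8.23 and 8.44 in unstressed pools. That gave a difference of 0.06.

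The difference between groups was larger than both gaps between pools of a group for 4 of the 34 members, against 20.2% of all transcripts. They were A66450, higher in stressed pools, and A50284, A106752 and A470200, lower. The gap was wider between the unstressed pools than between the stressed pools for 26 of 34 members, a pattern found for 63.4% of all transcripts. The median gap of the members was 0.16 between stressed pools and 0.33 between unstressed pools, against 0.14 and 0.21 over all transcripts.

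**Figure D3:**
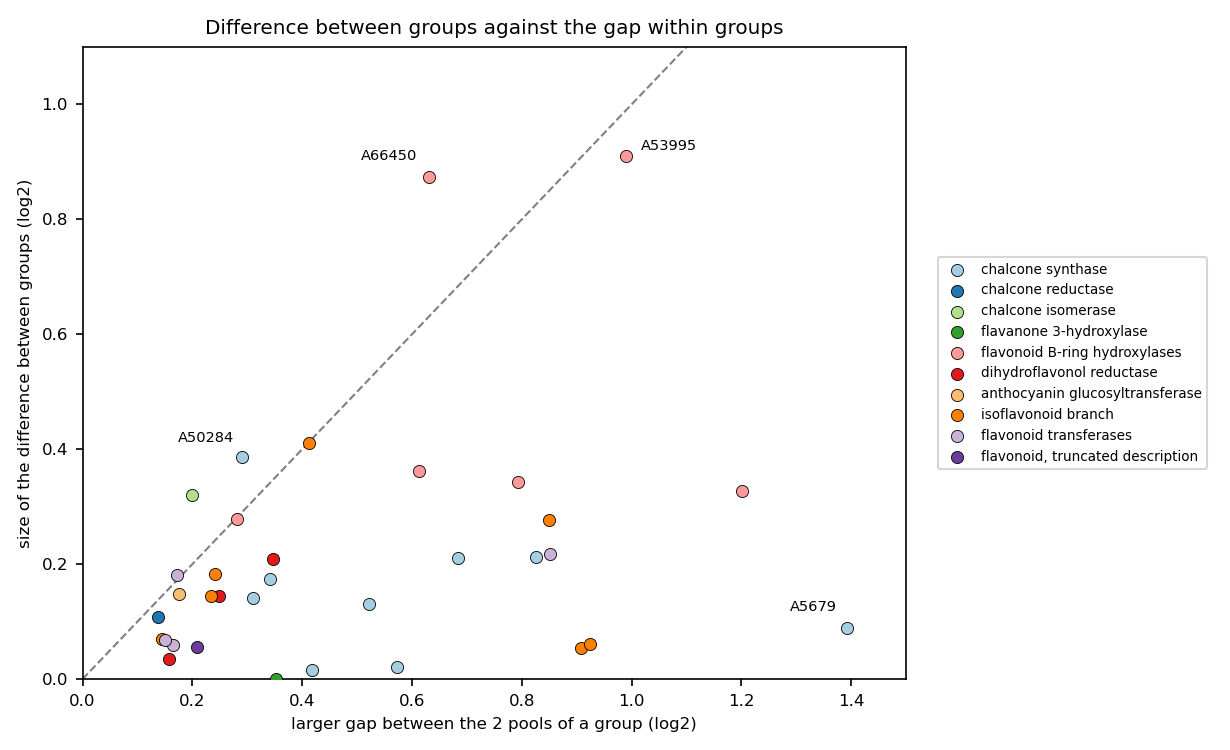
Size of the difference between groups (y axis, log2) against the larger of the gaps between the 2 pools of a group (x axis, log2) for each flavonoid pathway transcript, coloured by step. The dashed line marks equal size, and 4 transcripts lie above it, A66450 and A50284 among them, while A5679 lies farthest right with a gap of 1.39.

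Upstream of the flavonoids, the steps that make the shared starter also held no transcript that passed the test. Among 18 transcripts for entry into the phenylpropanoids, 12 differences were positive and the median was 0.07. All 6 phenylalanine ammonia-lyases, which open phenylpropanoid synthesis, were positive, but only from 0.04 to 0.17 and with overlapping groups. One cinnamate 4-hydroxylase, A1497, had 7.90 and 8.86 in stressed pools, against 7.83 and 7.46 in unstressed pools. Its difference of 0.74 was smaller than the gap between the stressed pools (adjusted p = 0.99). The 4-coumarate CoA ligases, which activate the starter for chalcone synthase, had 8 transcripts, 4 positive and 4 negative. Their median difference was 0.01, and the groups overlapped for 5 of them. Those without overlap, as found for 31.5% of all transcripts, were A188183 at -0.27, A178947 at -0.24 and A44890 at 0.17. The only transcript for malonyl-CoA supply, the chloroplast acetyl-CoA carboxylase A9570, was at 0.13 with overlapping groups.

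The lignin branch competes with flavonoids for the same starter. Its 17 transcripts had a median difference of 0.07, with 10 positive and none past the test. The largest was that of A15688, described as a cinnamoyl CoA reductase-like protein. It had 11.99 and 11.04 in stressed pools, against 10.82 and 10.58 in unstressed pools, a difference of 0.81 (adjusted p = 0.97). The similar A9909 was at 0.57, and for both, stressed replicate 1 was the high pool, as it was for A53995 and A66450. Cinnamyl alcohol dehydrogenase A10612 was at 0.21 and a caffeoyl-CoA O-methyltransferase, A3257, at 0.23.

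MYB and WD repeat proteins form complexes that switch on flavonoid genes, although most members of these large families act elsewhere. Of 81 MYB transcripts 61 had negative differences, with a median of -0.15, and none passed the test. That median was 0.0070 without unstressed replicate 1 and -0.05 without stressed replicate 2. The MYB transcripts with the smallest p were all higher in stressed pools. MYB112 (A6869) was at 0.83, a MYB domain class factor (A132993) at 1.57, MYB187 (A251040) at 0.69 and MYB93 (A46622) at 0.71. Their adjusted p-values ran from 0.14 to 0.20, and the descriptions do not tie them to flavonoids. Among 36 WD repeat transcripts the median was -0.04. A73515 was at 0.74 (adjusted p = 0.14) and an F-box and WD40 protein, A204878, at -0.46, with A29860 and A46706 at -0.31 and -0.27. No description named a basic helix-loop-helix protein, the remaining partner of such complexes.

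Glutathione S-transferases and multidrug transporters help to move flavonoids into the vacuole, among many other tasks. Their 17 transcripts had a median difference of 0.01 and none passed the test. The omega-class transferase A23820 was at 0.90 with overlapping groups, A1367 at 0.36, A18684 at 0.35 and A245804 at -0.26. Laccases and polyphenol oxidases can oxidise flavonoids and tannins, and laccases also polymerise lignin. Of their 16 transcripts 9 had negative differences, with a median of -0.05. The laccase A213127 had 9.04 and 9.11 in stressed pools, against 9.44 and 9.47 in unstressed pools, a difference of -0.38 (adjusted p = 0.61). Laccases A155477 and A38038 were at -0.29 and -0.24, and a polyphenol oxidase, A240059, was at -0.44.

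**Figure D4:**
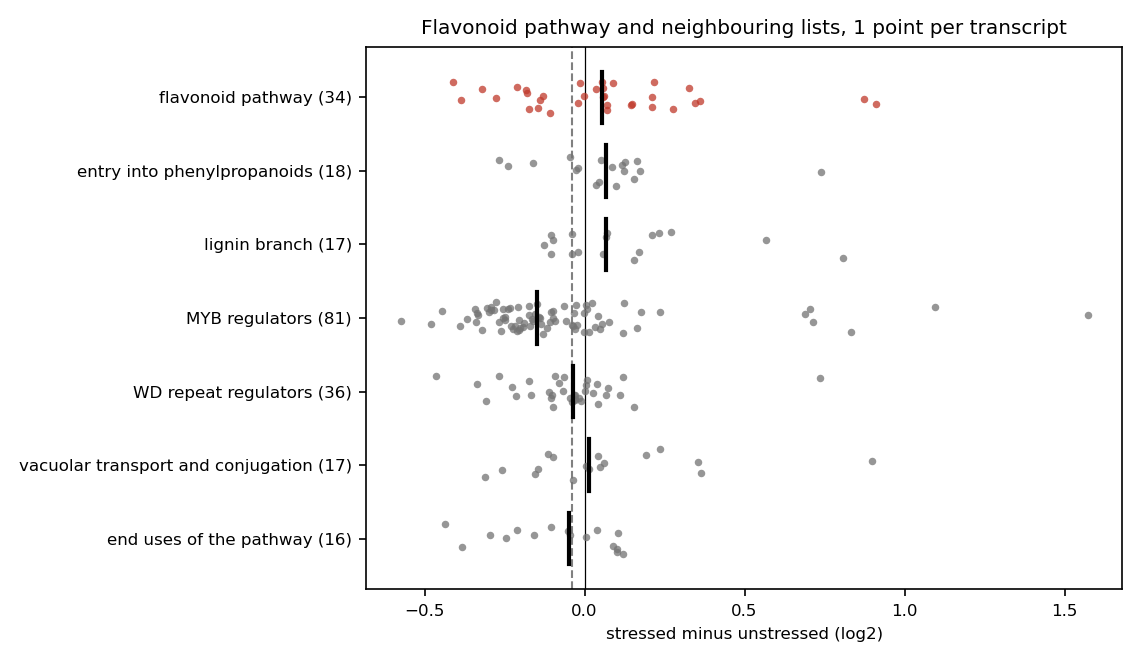
Stressed minus unstressed log2 difference (x axis) of each transcript in the flavonoid pathway and in 6 neighbouring lists, with the number of transcripts in brackets, a black bar at each list's median and a dashed line at the median of all transcripts. The flavonoid median is 0.05 and the MYB median -0.15, and no point shown passed the test after adjustment.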

How the data were processed

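Total RNA from 4 seedling pools was labelled with Cy3 and hybridised to 1-colour NimbleGen arrays, 1 pool per array, per the labels' protocols. The deposited intensity of a transcript is a linear RMA value, made by the authors per the submitters' processing notes. No source used here states the RMA software or its settings, so the version is not given. RMA assumes that most transcripts do not change, and it can compress differences of dim transcripts. Each member rested on 18 probes per the file headers. No detection call was used. The series table held the same intensities (largest difference 0).

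Intensities were taken to log2 without a filter and fitted with limma 3.58.1 (lmFit, then eBayes; R 4.3.3). Group was the sole term, which left 2 residual degrees of freedom. P-values were adjusted by the Benjamini-Hochberg method over all 4000 transcripts, with a threshold of 0.05. The fit was tested on simulated data with independent noise in each array. Deviations shared by same-numbered pools, which correlated at 0.51 in these data, were not simulated, so that test says nothing about them. An exact permutation test of 2 against 2 pools cannot go below 0.333, so none was used. The number of arrays limits the precision, and a p-value sets a difference only against the variation of these pools. For each transcript eBayes blends that variation with the variation of all transcripts, weighted as 2.926 prior degrees of freedom.

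Members, steps and neighbouring lists were set by search terms with earlier results of these data known. Values in every pool are given for members with an unadjusted p under 0.05, those without overlap at a difference of at least 0.5, and the brightest and most different member of each step. In each neighbouring list up to 4 transcripts with the smallest p are named. Phenylalanine ammonia-lyases, cinnamate 4-hydroxylases and 4-coumarate CoA ligases are also described as groups. Brightness also depends on the probes, so levels of different transcripts are not compared as amounts. The 11 alternatives left out each pool, added the replicate number as a term, added an offset of 50, left out dim transcripts, rescaled the arrays in either of 2 ways, used a variance trend or took the series table. No sequences are shown.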

Additional observations from a re-analysis of the deposited data

How the results depend on the processing

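No flavonoid pathway transcript passed the threshold under 10 of the 11 alternatives, nor did any neighbouring transcript. The exception was the fit with the replicate number as a block. Like the fits with 1 pool left out, it had 1 residual degree of freedom. In it 2 members were called higher, A66450 (adjusted p = 0.0085) and A53995 (adjusted p = 0.020), and none lower, with 8 neighbouring transcripts and 139 of all transcripts (3.48%) called, against 38 without the block. Deviations from group means correlated at 0.51 between same-numbered pools, a single value because 2 pools per group mirror each other. The labels do not say what the numbers share, so the pairing is a hint from the data and not the design. Pools numbered 2 were brighter in both groups for 14 of 34 members, against 34.8% of all transcripts. The median member difference of 0.05 ranged from -0.051 to 0.12 when 1 pool was left out, with its lowest value without unstressed replicate 1. The B-ring median of 0.35 was 0.83 without unstressed replicate 2. The median over all members was 0.0091 without stressed replicate 1 and -0.022 without stressed replicate 2. A342097 was at -0.63 without unstressed replicate 2 and at 0.20 without unstressed replicate 1. The cause of these shifts was not tested.

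When single pools were left out, 15 of 34 members kept the sign of their difference and 19 did not. Of the 15, 14 moved by over 1.5 times in at least 1 such fit, all but A106752, among them A515058 (0.06 to 0.67), A57908 (0.04 to 0.38), A23268 (0.02 to 0.27), A357116 (-0.26 to -0.03) and A43951 (-0.34 to -0.0040). The ranges of the 19 were -0.22 to 0.19 (A10444), -0.40 to 0.51 (A11587), -0.048 to 0.16 (A139364), -0.30 to 0.014 (A17055), -0.40 to 0.52 (A170960), -0.31 to 0.27 (A17694), -0.70 to 0.15 (A19949), -0.023 to 0.14 (A229525), -0.053 to 0.74 (A24973), -0.044 to 0.11 (A265735), -0.27 to 0.93 (A29617), -0.63 to 0.20 (A342097), -0.13 to 0.55 (A3881), -0.18 to 0.18 (A394475), -0.39 to 0.13 (A484786), -0.21 to 0.64 (A54669), -0.61 to 0.79 (A5679), -0.0068 to 0.14 (A59476) and -0.0022 to 0.14 (A70918). Under the other alternatives only A394475 changed sign, to 0.012 under quantile normalization. Leaving out dim transcripts removed 10 members, A66450 among them, which had no value there. Without a detection call, how far these stood above background is unknown.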
